A study of Mus musculus with 4 samples.

Results

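Piezo2 and 7 other genes that encode mechanosensitive cation channels were examined in basal and luminal cells of the developing mouse prostate, 8 of the 49671 genes in the deposited table. Piezo2 was chosen by its high normalized read counts in the luminal libraries, so its levels and the difference between the groups are given as a description with no test. Piezo1, Tmem63a, Tmem63b, Trpv4, Trpm4, Trpm7 and Pkd2 were named with it as related channels and were tested within a fit across all genes. All 8 passed the filter on low values, which kept 18737 genes.

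The tips of the ventral lobe, the outermost part of the growing ductal tree, were cut from male CD-1 mice, aged postnatal day 10 to 13 by the labels. The study's methods give a narrower range of ages and describe the mice as of mixed background. Cells were dissociated with collagenase and sorted by FACS, after cells carrying CD45, CD31 or CD140a had been removed. Multipotent basal cells were collected as EpCAM high, CD49f high cells (2 libraries, labelled replicates 1 and 3), and their luminal progeny as EpCAM high, CD49f low cells (2 libraries, labelled replicates 3 and 2). No treatment, transgene or deletion is stated for these samples. Lobes of several mice were used, and nothing states which mice contributed to which library, so p-values measure only the spread between these samples.

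Mechanosensitive cation channels open when the membrane is stretched, sheared or indented and let calcium, sodium or both enter the cell. PIEZO proteins are large trimeric channels: PIEZO2 is known for the sense of light touch in Merkel cells and for proprioception in sensory neurons, and PIEZO1 for sensing shear in vessels and crowding in epithelia. TMEM63 proteins are the mammalian relatives of the plant OSCA osmosensing channels. TRP channels and polycystins respond to osmotic swelling, flow or second messengers and often act together with stretch-gated partners.

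Values were normalized read counts, which the authors scaled to a common total of aligned reads. Within each library nearly all low values were whole multiples of the value of 1 read, between 6.26 and 6.49 in the basal libraries and 19.4 and 31.2 in the luminal libraries, which gave 3080222 to 3194291 reads on genes in basal cells and 643268 to 1036682 in luminal cells. The luminal libraries were the shallower ones, so that depth and cell type cannot be told apart. The sorted cells carried the markers of their label: each of 6 basal markers was higher in both basal than in both luminal libraries, with sums of 69537 to 83626 in basal and 5545 to 7318 in luminal cells, and 7 luminal markers summed to 23403 to 23813 in basal and 36773 to 53634 in luminal cells. Krt5, a keratin of the basal layer, read 18481 and 15824 in basal against 77 and 93 in luminal cells, and Krt19, a luminal keratin, 601 and 552 against 8306 and 4332 (limma adjusted p = 0.00613 and 0.0410). Transcripts of fibroblasts were also plentiful in every library, with all 8 listed markers above 0 and sums from 73499 to 214781, although the sort removed cells carrying CD140a, the product of Pdgfra. Dcn, a fibroblast proteoglycan, read 45830 and 47724 in basal against 5770 and 20256 in luminal cells (log2 fold change -2.11, adjusted p = 0.143 in limma, 0.0395 in edgeR and 0.00933 in DESeq2). Of the 8 markers only Dcn had both basal above both luminal libraries, an order of 27.3% of all genes, and the others overlapped. The median log2 fold change of the 8 was 0.16. Trpv4, Trpm7 and Pkd2 had the order of Dcn, and the part of fibroblast transcripts in their values was not tested. In bulk samples, fewer cells of a type and less RNA per cell cannot be told apart.

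Piezo2 stood at 1359 and 2027 normalized read counts in basal replicates 1 and 3, and at 29256 and 30072 in luminal replicates 3 and 2. Both luminal libraries were far above both basal libraries, and the luminal libraries lay closer to each other (1.03-fold apart) than the basal libraries did (1.49-fold). The group means were 1693 ± 472 in basal and 29664 ± 577 in luminal cells (SD, n = 2), a ratio of 17.5 and a log2 fold change of 4.16 (SE 0.27) on the log2(value + 1) scale.

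In reads, Piezo2 rested on 217 and 312 basal and 1511 and 965 luminal reads, so the shallower luminal libraries still held more of them. Per 1000000 reads on genes this was 67.9 (95% Wilson confidence interval 59.5 to 77.6) and 101 (90.7 to 113) in basal cells, and 1458 (1386 to 1533) and 1500 (1409 to 1598) in luminal cells. The intervals cover counting error only. The difference between the luminal libraries was thus within their counting error, while the basal libraries differed by more than theirs.

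**Figure D1:**
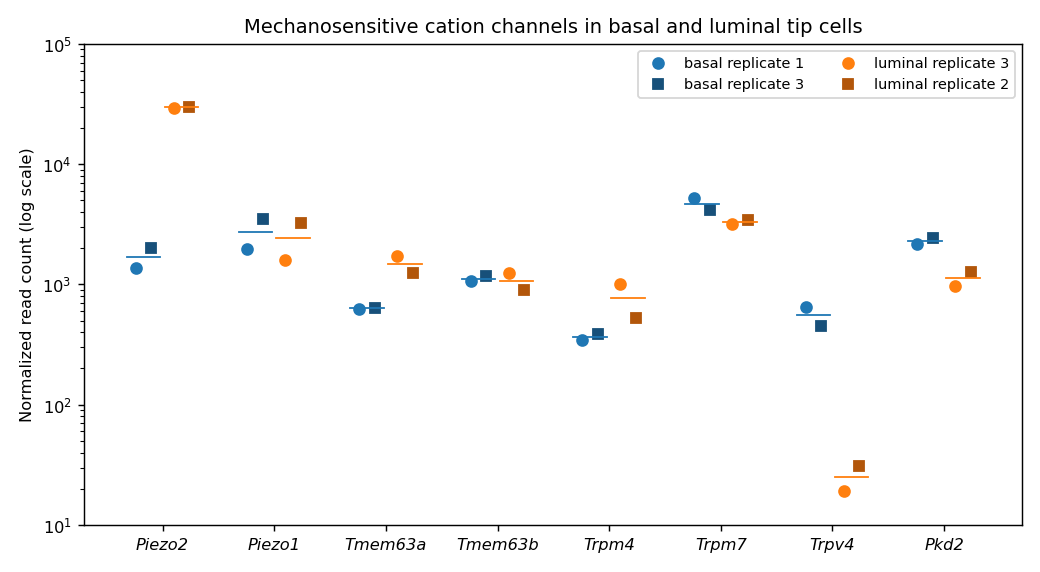
Normalized read count (log scale) of the 8 mechanosensitive channel genes in each of the 4 libraries, with basal replicates in blue, luminal replicates in orange and a line at each group mean. Piezo2 lies between 1359 and 2027 in basal and at 29256 and 30072 in luminal cells, Trpv4 shows the opposite order with 1 read in each luminal library, and Piezo1 and Tmem63b overlap between the groups.

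Among all genes kept, Piezo2 ranked 2280 by its mean level in basal cells and 32 by its mean level in luminal cells. In the luminal order it stood between Ubr4 (mean 31034), a large ubiquitin ligase, and Ahnak (28671), a giant scaffold protein, both also long transcripts, and no gene with a higher luminal mean had a larger ratio of luminal to basal mean. Divided by exon length (17.2 kb for Piezo2), the level was 79.2 and 118 per kb of exon in basal libraries, ranks 9244 and 6889 of the genes kept, and 1705 and 1752 in luminal libraries, ranks 453 and 438. These ranks describe the gene that was picked and are not a test.

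The Piezo2 gene (ENSMUSG00000041482) spans 63010213 to 63387183 on the minus strand of chromosome 18 (GRCm38) and has 56 separate exon blocks. No other annotated gene shared exon bases with it. Neighbouring genes had other patterns: Napg, a membrane fusion factor 10.8 kb past the end of Piezo2, read 263 and 487 in basal and 562 and 374 in luminal cells (log2 fold change 0.36, limma adjusted p = 0.705), and Apcdd1, an inhibitor of Wnt signalling 49.0 kb past the end, read 2073 and 1929 in basal and 581 and 280 in luminal cells (-2.31, adjusted p = 0.0688). On the other side Txnl1, 274 kb before the start, had a log2 fold change of -0.50 (adjusted p = 0.473) and Wdr7 one of 0.57 (adjusted p = 0.572).

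Because PIEZO2 is a known channel of Merkel cells, which share markers with neuroendocrine cells, 15 markers of both were read beside it. Their summed normalized read counts were 519 and 570 in basal and 1025 and 778 in luminal cells, so that Piezo2 was 2.62 and 3.56 times the sum in basal and 28.5 and 38.7 times the sum in luminal cells. Of the 15 markers, 7 were above 0 in each basal library, and 12 and 6 in luminal replicates 3 and 2. Of the 5 that passed the filter, 3 were past the fold toward luminal and 1 toward basal cells. Among all genes kept the shares were 18.3% and 16.3%. The 3 were Scg3, Tph1 and Krt20, which passed only through the luminal group, on 1 to 3 reads in each luminal library. The filter thus favoured that direction for them. Limma, edgeR and DESeq2 called 0 of the 5. At an unadjusted limma p under 0.05 there were 2 and 1, beside 7.82% and 10.7% of all genes.

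Sox2 (338 and 201 in basal, 39 and 31 in luminal) and Isl1 (125 and 325 against 77 and 530), which other cell types also express, carried most of the sum in the basal libraries and in luminal replicate 2. Leaving them out, a choice made after their values were seen, the other 13 markers summed to 56 and 44 in basal and to 909 and 217 in luminal cells. The remaining sum was thus higher in both luminal libraries, as Piezo2 was, on 9 and 7 basal and 47 and 7 luminal reads.

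Single markers of the list had few reads. In luminal replicate 2, the library with the highest Piezo2 value, Chga, Chgb, Syp and Insm1 were all at 0, and luminal replicate 3 held 11 reads of Chga and 4 of Insm1. Scg2 and Neurod1 were at 0 in all 4 libraries, and Atoh1, the regulator that specifies Merkel cells, had 1 read in luminal replicate 2 and 0 elsewhere. Of 8 markers of neurons and Schwann cells, which also hold Piezo2 in sensory nerves, the sums were 600 and 1090 in basal and 407 and 373 in luminal cells. The part of all these cells in the Piezo2 values was not tested.

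**Figure D2:**
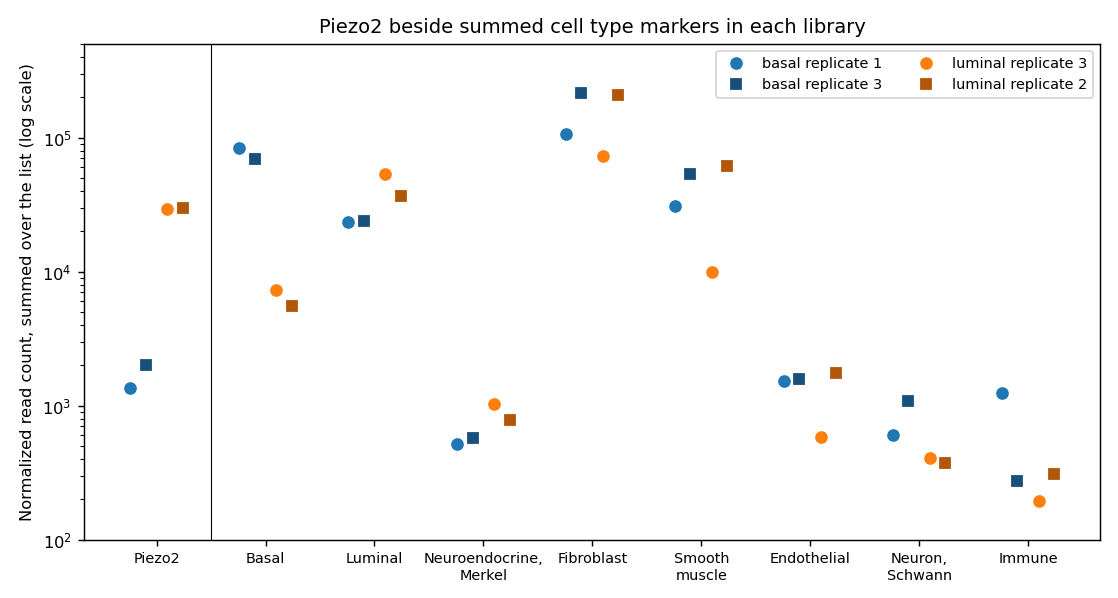
Normalized read count (log scale) of Piezo2 and the summed normalized read counts of marker lists for 8 cell types in each library, basal in blue and luminal in orange. Piezo2 stands at 29256 and 30072 in the luminal libraries, where the neuroendocrine and Merkel list sums to 1025 and 778 against 519 and 570 in the basal libraries, while the fibroblast and smooth muscle sums differ more between libraries of a group than between the groups.

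Piezo1 showed no such split. It stood at 1979 and 3514 in basal replicates 1 and 3 and at 1607 and 3241 in luminal replicates 3 and 2, so the groups overlapped and each held a high and a low library. The means were 2747 ± 1085 and 2424 ± 1155 (SD, n = 2), with a log2 fold change of -0.21 (SE 0.45, limma adjusted p = 0.823), which turned to 0.10 when libraries were rescaled to the total of their nuclear-encoded coding genes (the nuclear coding scale). Leaving out basal replicate 3 gave 0.21 and leaving out luminal replicate 3 gave 0.30, so the sign rested on single libraries.

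Piezo1 was higher in those libraries that also held more stromal transcripts. In the order basal 1, basal 3, luminal 3 and luminal 2, the 8 fibroblast markers summed to 106510, 214781, 73499 and 206796, and 6 smooth muscle markers, all above 0 in every library, summed to 30687, 53240, 9984 and 61015. Their part in the Piezo1 values was not tested. Piezo1 (ENSMUSG00000014444, chromosome 8, 122481698 to 122551329, minus strand) also shares 2441 exon bases with Ctu2 on the opposite strand, which read 457 and 591 in basal and 310 and 530 in luminal cells. Whether the counting used strand is not given in the sources used here, so some reads of either gene may be uncertain.

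Per kb of exon, which allows the paralogs to be compared, Piezo2 was 0.398 and 0.334 times Piezo1 in basal replicates 1 and 3, and 10.5 and 5.37 times Piezo1 in luminal replicates 3 and 2. Piezo1 was thus the more abundant PIEZO transcript in both basal libraries and Piezo2 in both luminal libraries. The ratio uses the Piezo2 values that chose the gene and is a description.

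The 2 TMEM63 paralogs differed from each other in their order. Tmem63a read 620 and 643 in basal and 1723 and 1247 in luminal libraries, with both luminal values above both basal values. The ratio of means was 2.35 and the log2 fold change 1.21 (SE 0.29), which did not pass with limma (adjusted p = 0.0946), edgeR (0.0633) or DESeq2 (0.133). Tmem63b read 1065 and 1169 in basal and 1239 and 904 in luminal libraries, with overlapping groups and a log2 fold change of -0.08 (SE 0.29, limma adjusted p = 0.906) that turned to 0.23 on the nuclear coding scale and to 0.15 without luminal replicate 2.

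Per kb of exon, Tmem63a was 0.661 and 0.624 times Tmem63b in basal and 1.58 and 1.57 times in luminal libraries, close to equal within each group. Tmem63a (ENSMUSG00000026519, chromosome 1, 180942344 to 180975112, plus strand) shares 157 exon bases with the antisense gene 2210411M09Rik, which read 138 and 97 in basal and 310 and 125 in luminal cells. Tmem63b (ENSMUSG00000036026, chromosome 17, 45660171 to 45686905, minus strand) shares 288 exon bases with the antisense gene Gm16172 and 106 with Mrpl14 on the opposite strand. Tmem63c, the remaining paralog, had 1 read in basal replicate 1 and 0 in the other libraries.

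Trpv4, a calcium-permeable channel opened by cell swelling, warmth and lipid messengers, showed the reverse order to Piezo2. It read 651 and 455 in basal replicates 1 and 3 and 19 and 31 in luminal replicates 3 and 2, which is 104 and 70 basal reads against 1 read in each luminal library. Both basal libraries were above both luminal libraries. Over the summed reads the basal rate was 23.3 times the luminal rate (exact 95% interval 6.35 to 194, counting error only).

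The fitted log2 fold change of Trpv4 was -4.43 (SE 0.69), with an adjusted p of 0.0659 in limma, so it was not called. It passed under other settings of the same comparison: 0.00781 with limma when every sample and both groups had to pass the filter, 0.0183 with a pseudocount of 30, 0.00449 with edgeR and 0.00801 with DESeq2 on recovered reads. Across all alternatives the adjusted p ran from 0.00449 to 0.447, the highest being limma without basal replicate 1. Trpv4 (ENSMUSG00000014158) lies on the minus strand of chromosome 5, from 114622152 to 114658421, and shared no exon bases with another gene.

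Of the melastatin TRP channels, Trpm4, which carries sodium and is opened by intracellular calcium, read 344 and 390 in basal and 1007 and 530 in luminal libraries. Both luminal values were above both basal values, but the luminal libraries were themselves 1.90-fold apart. The log2 fold change was 0.99 (SE 0.43, limma adjusted p = 0.296). Without luminal replicate 3 it was 0.53 and without luminal replicate 2 it was 1.46.

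Trpm7, a magnesium- and calcium-permeable channel fused to a kinase, was the most abundant member in basal cells per kb of exon. It read 5211 and 4125 in basal and 3195 and 3428 in luminal libraries, both basal values above both luminal values. The log2 fold change was -0.49 (SE 0.23, limma adjusted p = 0.335). Trpm4 (ENSMUSG00000038260) lies on chromosome 7 at 45302632 to 45333780 and Trpm7 (ENSMUSG00000027365) on chromosome 2 at 126791565 to 126876230, both on the minus strand.

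Pkd2 encodes polycystin-2, a cation channel of the endoplasmic reticulum and the primary cilium. It read 2173 and 2423 in basal and 968 and 1278 in luminal libraries, with both basal values above both luminal values. The basal mean was 2.05 times the luminal mean (2298 ± 177 against 1123 ± 219, SD, n = 2), a log2 fold change of -1.04 (SE 0.26) that did not pass with limma (adjusted p = 0.105), edgeR (0.0940) or DESeq2 (0.269). The nuclear coding scale reduced it to -0.73. Pkd1, which encodes the large receptor partner of polycystin-2, read 3532 and 4268 in basal and 2904 and 4830 in luminal libraries (log2 fold change -0.05, limma adjusted p = 0.946), so per kb of exon Pkd1 was 0.949 and 1.03 times Pkd2 in basal and 1.75 and 2.21 times Pkd2 in luminal libraries. Pkd2 (ENSMUSG00000034462) spans 104459450 to 104505819 on the plus strand of chromosome 5.

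Counted together, 0 of the 7 tested members passed limma at an adjusted p under 0.05 in either direction, beside 0.256% of all genes tested called higher in luminal and 0.438% in basal cells. At an unadjusted p under 0.05 limma gave 1 member higher in luminal cells (Tmem63a) and 2 in basal cells (Trpv4 and Pkd2), beside 7.82% and 10.7% of all genes. The edgeR and DESeq2 tests each called 1, Trpv4, higher in basal cells, as they did 2.71% and 2.89% of the genes they tested. In luminal cells they called 0 members, beside 2.35% and 2.8% of genes. By the ratio of group means at 2 or 0.5, the rule the study's methods state, 2 of the 7 were higher in luminal cells (Tmem63a and Trpm4) and 2 in basal cells (Trpv4 and Pkd2), beside 18.3% and 16.3% of all genes. Both luminal libraries were above both basal libraries for 2 of the 7 and both basal above both luminal for 3, beside 23.6% and 27.3% of all genes. The median log2 fold change of the 7 was -0.21, and of all genes kept -0.10, which moved to -0.06 with median-of-ratios rescaling and to 0.22 on the nuclear coding scale.

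The order of the 8 members by level per kb of exon was not the same in the 2 cell types. In basal cells it ran from Trpm7 (413 ± 67.9) over Piezo1 (276 ± 109), Pkd2 (226 ± 17.4), Tmem63b (219 ± 14.4), Tmem63a (141 ± 3.62), Trpv4 (136 ± 34.0) and Piezo2 (98.6 ± 27.5) to Trpm4 (33.9 ± 3.00; SD, n = 2). Neighbours overlapped between their libraries except Trpm7 and Piezo1, Tmem63b and Tmem63a, and Piezo2 and Trpm4.

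In luminal cells the order ran from Piezo2 (1728 ± 33.6) over Tmem63a (331 ± 74.9), Trpm7 (293 ± 14.6), Piezo1 (244 ± 116), Tmem63b (210 ± 46.5), Pkd2 (110 ± 21.6) and Trpm4 (71.0 ± 31.2) to Trpv4 (6.13 ± 2.08; SD, n = 2). Tmem63a and Trpm7, Trpm7 and Piezo1, and Piezo1 and Tmem63b overlapped between their libraries, and the other neighbours did not. Summed over the 8 members, the level per kb of exon was 1491 and 1595 in basal and 2968 and 3019 in luminal libraries. Piezo2 made up 5.31% and 7.41% of the sum in basal and 57.4% and 58.0% in luminal libraries, and without Piezo2 the sum was 1412 and 1477 in basal and 1264 and 1266 in luminal libraries.

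**Figure D3:**
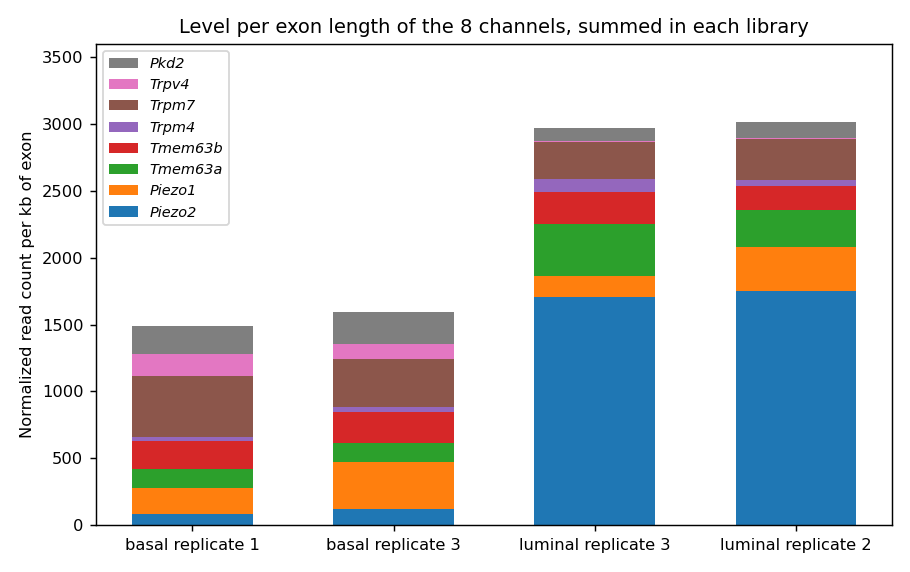
Normalized read count per kb of exon of the 8 channels, stacked from 0 for each library. The luminal bars reach 2968 and 3019, of which Piezo2 is 57.4% and 58.0%, while the basal bars reach 1491 and 1595 with Piezo2 at 5.31% and 7.41%.

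Promoter sequences from RefSeq (GRCm38.p6) were matched for 6 of the 8 members, all but Piezo2 and Trpm4. The 250 bases before the RefSeq start of the gene are shown for Trpv4, the member highest in basal relative to luminal cells, and Piezo1, whose groups overlapped. For both genes this window lies outside the gene as annotated by GENCODE. Capitals mark a GC box (GGGCGG on either strand) and, in Piezo1, a TATA box (TATAAA).
Trpv4, chr5:114658422-114658671, minus strand: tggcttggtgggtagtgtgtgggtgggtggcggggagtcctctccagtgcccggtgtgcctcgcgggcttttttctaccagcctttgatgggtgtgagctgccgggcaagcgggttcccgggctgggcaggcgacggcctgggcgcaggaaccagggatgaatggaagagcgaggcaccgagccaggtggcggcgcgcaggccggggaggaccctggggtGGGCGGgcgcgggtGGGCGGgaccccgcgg
Piezo1, chr8:122551330-122551579, minus strand: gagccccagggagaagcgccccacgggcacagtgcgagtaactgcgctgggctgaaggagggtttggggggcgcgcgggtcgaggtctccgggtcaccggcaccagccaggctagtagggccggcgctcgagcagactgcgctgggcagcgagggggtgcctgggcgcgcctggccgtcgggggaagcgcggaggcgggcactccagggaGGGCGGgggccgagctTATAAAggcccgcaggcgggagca

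The GC box, a binding motif of SP1-type factors, occurred in 32.7% of 32851 promoter windows of the same length, and here it occurred 2 times in the window of Trpv4 and 1 time in that of Piezo1. The TATA box occurred in 12.4% of all windows and, among the 6 members, only in Piezo1. An AP-1 motif (TGANTCA, in 6.75% of all windows), a TEAD motif (GGAATG, 12.6%), a core of androgen response elements (AGAACA, 16.1%) and a CREB motif (TGACGTCA, 1.55%) were searched on both strands, and of these only the TEAD letters were found, 1 time in the window of Pkd2. The windows shown were GC-rich, at 72% for Trpv4 and 74% for Piezo1 against a median of 52.4% over all windows.

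Among other channel families, 53 genes were listed, 32 of which passed the filter and 5 of which were at 0 in all libraries. None passed limma at an adjusted p under 0.05. With an unadjusted p under 0.05 there were 6 genes toward luminal and 3 toward basal cells in limma, beside 7.82% and 10.7% of all genes. edgeR called 4 and 1, beside 2.35% and 2.71%, and DESeq2 called 2 and 1, beside 2.8% and 2.89%. By the ratio of means, 11 of the 32 were at least 2-fold higher in luminal and 4 in basal cells, beside 18.3% and 16.3% of all genes, the 4 being 7 without basal replicate 1 and 9 without luminal replicate 2. With every sample and both groups past the filter, the counts past the fold were 8 and 3. Tmc5, Trpm6 and Asic3, counted toward luminal cells, had passed only through the luminal group, where single reads have larger values. The median log2 fold change of the 32 genes was 0.31, but 0.66 on the nuclear coding scale. It was 0.62, 0.57 and 0.73 without basal replicate 3, luminal replicate 3 and luminal replicate 2.

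Of 22 other TRP channels, 10 passed the filter, with both luminal libraries above both basal libraries for 6 and the reverse for 1, beside 23.6% and 27.3% of all genes. Trpv3, a warmth-activated channel of skin keratinocytes, read 69 and 39 in basal and 736 and 561 in luminal libraries. Its log2 fold change was 3.60 (SE 0.58), not called by limma (adjusted p = 0.0659) but called by edgeR (0.00314) and DESeq2 (7.23e-05). Trpv6, a calcium uptake channel of epithelia, read 81 and 26 against 174 and 156, and Trpc4, a store- and receptor-operated channel, 251 and 110 against 39 and 62, with 2 reads in each luminal library.

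Trpm3, a steroid- and heat-activated channel, was chosen after its values were seen because it held the highest values of the list: 2442 and 2956 in basal and 6467 and 4207 in luminal libraries (log2 fold change 0.96, limma adjusted p = 0.167). Trpa1, Trpc7, Trpm8 and Mcoln3 were at 0 in all 4 libraries. In the list of polycystins, Pkhd1, the gene for fibrocystin of the primary cilium, read 207 and 227 in basal and 794 and 623 in luminal libraries (log2 fold change 1.69, limma adjusted p = 0.0789, edgeR 0.0419, DESeq2 0.0735). Fibrocystin is not itself a channel, but Pkhd1 is part of the luminal fold and edgeR counts given for the channel families. Pkd2l2 and Pkd1l3 overlapped between the groups, with log2 fold changes of 0.19 and 0.17.

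In the TMC family, which includes the transduction channels of inner ear hair cells, 6 of 9 listed genes (Tmem63c among the 9) passed the filter. Of these, 2 had both luminal above both basal values, as did 23.6% of all genes. Tmc5, counted here, had 0 basal reads and passed only through the luminal group. Tmc7 read 81 and 162 in basal and 1007 and 1247 in luminal libraries, a log2 fold change of 3.28 (SE 0.49) with an adjusted p of 0.0627 in limma, 0.00207 in edgeR and 1.7e-05 in DESeq2. Tmc4 (0.49) and Tmc6 (0.27) had smaller log2 fold changes and overlapping groups. Tmc1 and Tmc2, the hair cell genes, had at most 1 read in any library.

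The subunits of the epithelial sodium channel ENaC were ordered differently from each other. Scnn1g read 1309 and 864 in basal and 77 and 0 in luminal libraries, and Scnn1b 908 and 715 against 387 and 218, while Scnn1a, the pore subunit needed by all ENaC channels, read 31 and 84 against 426 and 187. Scnn1g had an adjusted p of 0.159 in limma, 0.00256 in edgeR and 0.000116 in DESeq2, on 4 and 0 luminal reads. Scnn1b (log2 fold change -1.47) and Scnn1a (2.44) had limma adjusted p of 0.150 and 0.217. With the tandem-pore potassium channels and acid-sensing channels, 6 of 10 genes of this list passed the filter, with a median log2 fold change of -1.23 that turned to 0.49 without luminal replicate 3.

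The 5 LRRC8 subunits of the volume-regulated anion channel all passed the filter. Lrrc8a, the obligatory subunit, overlapped between the groups (1215 and 1468 in basal, 1259 and 1153 in luminal). Lrrc8c read 326 and 416 against 58 and 187, Lrrc8d 463 and 435 against 929 and 561, and Lrrc8b overlapped. Their limma adjusted p were 0.269, 0.397 and 0.713.

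Of 10 genes for proteins that bind PIEZO channels or tune them, 9 passed the filter, and both basal libraries were above both luminal libraries for 5 of them, with the reverse for 0, beside 27.3% and 23.6% of all genes. Tmem150c, which slows the inactivation of PIEZO currents, read 382 and 351 in basal and 77 and 125 in luminal libraries, Tmem120a, which inhibits PIEZO2, 225 and 234 against 97 and 62, and Stom, a membrane scaffold of the stomatin family, 207 and 539 against 116 and 125. Their log2 fold changes were -1.89, -1.55 and -1.46, with limma adjusted p of 0.155, 0.275 and 0.309. No gene of the list was called by limma, edgeR or DESeq2, and 3 had an unadjusted limma p under 0.05, all toward basal cells, where 10.7% of all genes had one. Mdfic, an auxiliary subunit of PIEZO channels, overlapped between the groups (1290 and 461 in basal, 523 and 561 in luminal), and Stoml3, a partner of PIEZO2 in sensory neurons, had reads in basal replicate 1 alone. The median of the list was -0.68, and -0.37 on the nuclear coding scale.

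**Figure D4:**
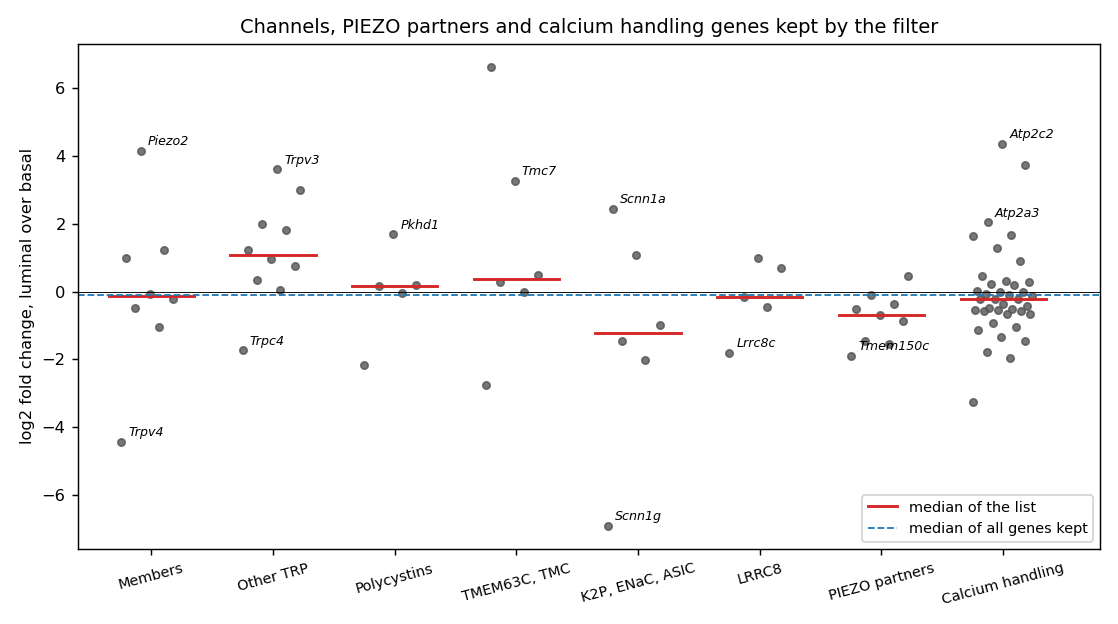
Fitted log2 fold change of luminal over basal cells for each gene kept in the 8 members, 5 other channel families, PIEZO partners and calcium handling genes, with the median of each list in red and the median of all genes kept (-0.10) as a dashed line. Piezo2 and Trpv4 lie at opposite ends of the members (4.16 and -4.43), and Atp2c2 is at 4.36 among the calcium handling genes. The points beyond 6 on either side belong to genes with 0 reads in at least 1 library of a group, whose size depends on the pseudocount of 1.

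Of 40 genes for calcium entry, release, pumps and calcineurin signalling, which act on the calcium that such channels admit, 39 passed the filter. Limma called 1 higher in luminal cells and 0 higher in basal cells, beside 0.256% and 0.438% of all genes. At an unadjusted p under 0.05 the counts were 3 and 4, beside 7.82% and 10.7% of all genes, and edgeR and DESeq2 each called 2 and 1, beside 2.35% and 2.71% for edgeR and 2.8% and 2.89% for DESeq2. By the ratio of means 6 were higher in luminal and 6 in basal cells, beside 18.3% and 16.3% of all genes, with 3 in basal cells without basal replicate 3 and 12 without luminal replicate 2. The median log2 fold change of -0.22 turned to 0.09 on the nuclear coding scale.

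The called gene was Atp2c2, the secretory pathway calcium and manganese pump of the Golgi. It read 44 and 52 in basal and 1239 and 810 in luminal libraries, a log2 fold change of 4.36 (SE 0.51) with an adjusted p of 0.0464 in limma, 0.000458 in edgeR and 2.41e-08 in DESeq2. Atp2a3, a calcium pump of the endoplasmic reticulum, read 526 and 1624 against 4473 and 3272 (log2 fold change 2.05, adjusted p = 0.131 in limma, 0.0448 in edgeR and 0.0191 in DESeq2). Nfatc1, a calcineurin-dependent transcription factor chosen after its values were seen, read 4657 and 3865 against 813 and 1901 (log2 fold change -1.77, adjusted p = 0.101 in limma, 0.0230 in edgeR and 0.0176 in DESeq2). Orai3, a subunit of store-operated calcium channels, was at 0 in luminal replicate 2 and at 155 in luminal replicate 3.

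The genes most like Piezo2 over the 4 libraries were sought by the smallest distance between log2 profiles, each centred on its own mean, among 12550 other genes with an average of 100 or more. The nearest were 5330417C22Rik (distance 0.43), which read 520 and 585 in basal and 10591 and 8071 in luminal libraries, the antisense gene Gm11655 (0.51), with 3 reads in each basal library, and Creb3l4 (0.52), an endoplasmic reticulum-bound transcription factor, which read 25 and 39 against 794 and 499. Atp2c2 followed (0.56). Both luminal values were well above both basal values for these 4. With 4 libraries in 2 groups, likeness here means mainly a similar difference between the groups.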

How the data were processed

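RNA-seq of sorted prostate tip cells was analysed in 2 basal and 2 luminal libraries, grouped as labelled. Reads were mapped to GRCm38 with STAR and counted per gene with HTSeq according to the submitters' processing notes, which also name Picard. The authors scaled each library to the same number of aligned reads. The deposited signal is this normalized read count, rounded to a whole number. Strand use and removal of duplicate molecules are not given in the sources used here.

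Genes had to reach 10 in each library of 1 group or both, with an average of 20 or more in that group, to be kept. limma 3.58.1 (R 4.3.3) was fitted to log2(value + 1) with a trended prior, and p-values were adjusted by Benjamini-Hochberg over all genes kept. With 2 libraries against 2, no exact two-sided permutation p can go below 0.333. Low values (up to 60 reads) were 97.9% to 99.0% whole reads within 0.6 of a unit, and edgeR 4.0.16 (quasi-likelihood, TMM) and DESeq2 1.42.0 were run on these reads as alternatives. The replicates of a group differed by more than sampling noise (chi-square per degree of freedom 13.3 and 7.97). GENCODE annotation of GRCm38, with 49412 of the identifiers, gave symbols, exon lengths and positions. Scripts were tested on simulated counts.

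Members, lists and tests were chosen with earlier results of these data known. The text names all 8 members, in each list up to 3 genes with the largest fold change at an average of 100 or more, genes with a limma adjusted p under 0.05 and the 5 genes nearest to Piezo2, apart from items that are not reported here. Other genes were named after their values were seen.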

Additional observations from a re-analysis of the deposited data

How the results depend on the processing

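No paired analysis was possible because the groups share 1 replicate number and a block needs at least 2. For the 7 tested members, direction and side of the threshold stayed as reported in 75 of 84 values under alternatives, with 5 reversals, all for Piezo1 and Tmem63b. Piezo1 was 0.10 and Tmem63b 0.23 on the nuclear coding scale, against -0.21 and -0.08 as reported, and leaving out each library in turn gave -0.71 to 0.30 and -0.30 to 0.15. That scale moved Piezo2, which has no test, from 4.16 to 4.47. Trpv4 passed the threshold with every sample and both groups past the filter (-4.43), a pseudocount of 30 (-3.39), edgeR (-4.42) and DESeq2 (-4.47). The cause was not tested for these, except that the stricter filter tests fewer genes. Across all genes limma called 48 genes higher in luminal and 82 in basal cells; this became 0 and 0 with no filter (1410 and 3045 at an unadjusted p under 0.05), 269 and 409 with the stricter filter, 274 and 393 with a pseudocount of 30, 441 and 507 with edgeR, 403 and 416 with DESeq2, and 6 to 830 and 14 to 751 without each library, the lowest without basal replicate 1 and luminal replicate 2 and the highest without luminal replicate 3 and basal replicate 3. By the ratio of means 3431 and 3051 genes became 6535 and 7806 with no filter, 1852 and 1792 with the stricter filter and 1456 and 1133 at a fold of 4, and 3760 to 5554 and 3213 to 4406 without each library. For the other channel families the median of 0.31 was 0.66 on the nuclear coding scale and 0.25 to 0.73 without each library. Their 11 and 4 genes past the fold became 19 and 11 with no filter, and 11 to 14 and 5 to 9 without each library. With the stricter filter these counts were 8 and 3. Of the 5 genes nearest to Piezo2, 4 were shared at an average of 300 or more and 0 with uncentred profiles. Trpv4 in luminal cells rests on 1 read per library, so its fold has a wide counting interval, and 2 libraries per group limit every test.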

Other observations

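The last 1280 genes of the deposited table, none of them a gene of the lists used here, did not share the spacing of the rest. Of 489 genes above 0 there, 414 had a value off the spacing of their library, against 119 of the 27383 genes above 0 before them. Low values in this block were spaced by 6.5 in the column of basal replicate 1, 7.92 in that of basal replicate 3, 31.16 in that of luminal replicate 3 and 18.86 in that of luminal replicate 2, whereas the value of 1 read in the rest of the table was 6.26, 6.49, 19.4 and 31.2 in the same order. Leaving out these genes, an alternative chosen after seeing the data, left the limma counts at 48 and 82.

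Dissociation stress genes were plentiful in all libraries. The sum over Fos, Jun, Egr1, Hspa1a and Atf3 was 229952 and 116169 in basal and 87421 and 129324 in luminal libraries, overlapping between the groups. Markers of endothelial cells summed to 1535 and 1585 in basal and 581 and 1745 in luminal libraries, and those of immune cells to 1252 and 272 against 194 and 311.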
